A study of Homo sapiens with 2 samples.

Results

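The genes described here encode the enzymes and regulators that make nucleotides, move one-carbon units on folate, and make and break down polyamines. They were 40 genes chosen by symbol: 13 of purine synthesis and salvage, 7 of pyrimidine synthesis and salvage, 9 that supply deoxynucleotides and triphosphates, 5 of folate metabolism and 6 of polyamine metabolism. Of the 40 genes, 39 had at least 1 probe set annotated with that symbol alone, out of 19775 genes so represented on the array. Each gene was read from its brightest probe set, the one with the highest mean log2 signal over the arrays. A gene counted as measured when this mean was no lower than the median over the non-control probe sets, equal to a signal of 50.4, and 38 of the 40 genes did so. MTHFD1L lay below this level, with 33.7 in cells given the JMJD1A/JMJD1B siRNAs and 4.36 in control cells. Its 2 probe sets annotated with several symbols were not used, so its expression is not settled here. UCK2 had only probe sets annotated with several symbols and was not analysed here.

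The samples were HCT116 cells, a human cell line established from a colorectal carcinoma, given siRNAs against JMJD1A and JMJD1B or a control siRNA by lipid transfection. The array of the first is called the JMJD1A/B siRNA array here and that of the second the control array. JMJD1A and JMJD1B are older names of KDM3A and KDM3B, which remove methyl groups from histone H3 lysines. Total RNA was taken 2 days after transfection and hybridized to 1 expression array per condition. No replicate error and no test could be had, and every ratio below compares 1 hybridization with 1 other. The labels give no siRNA sequences, and matches to other transcripts were not analysed here. In RNA from whole cultures, fewer cells expressing a gene and less RNA per cell cannot be told apart.

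Purine synthesis builds its ring step by step on a phosphorylated ribose and ends in inosine monophosphate, from which the adenine and guanine nucleotides branch. Pyrimidine synthesis closes the ring first, attaches the ribose afterwards and ends in uridine and cytidine nucleotides, while salvage enzymes recover bases and nucleosides for both. Folate carries the one-carbon units used in the purine ring and in thymidylate, and ribonucleotide reductase turns ribonucleotides into the precursors of DNA. Polyamines, which bind nucleic acids and are abundant in dividing cells, are built from ornithine and a decarboxylated form of S-adenosylmethionine, and are acetylated for breakdown or export.

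KDM3B read 496 on the JMJD1A/B siRNA array and 3031 on the control array, whereas KDM3A read 3323 on the JMJD1A/B siRNA array and 3884 on the control array. All 8 epithelial marker genes were measured, with signals between 78.2 and 38953. Of 12 markers of leukocytes, endothelium and fibroblasts 4 passed the filter, with signals between 39.1 and 631. The dimmest epithelial markers thus lay in the range of these 4. As deposited, both arrays had the same trimmed mean signal, 500.1, computed here without the highest and lowest 2% of probe sets. The 18 hybridization control probe sets, which report transcripts added to the samples by the array procedure, had a median log2 ratio of 0.61, and each of the 18 read higher on the JMJD1A/B siRNA array. A log2 ratio between 0 and 0.61 would therefore turn negative if the arrays were set level on these controls. Scatter between probe sets of 1 gene was the only error available: over 6192 genes with more than 1 measured probe set, the SD of a probe set's log2 ratio was 0.54. This SD says nothing of the spread between cultures.

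By their brightest probe set, the genes among the 38 that differed 2-fold lay in the pyrimidine, polyamine and purine arms, with PFAS alone in the last. CTPS1, CAD, PFAS, SRM and UMPS were lower by 2-fold or more on the JMJD1A/B siRNA array, which is 5 of 38 (13.2%), against 8.53% of all 12561 measured genes. SAT1 alone was at least 2-fold higher, which is 1 of 38 (2.63%), against 8.91% of all measured genes. The remaining 32 lay within 2-fold, as did most measured genes, all those outside the 8.53% and 8.91%. The median log2 ratio was -0.14 over the 38 genes and 0.04 over all measured genes. Beyond the probe-set SD, 9 of the 38 lay below 0, against 21.2% of all measured genes, and 3 lay above 0, against 23.7%. At a threshold of 1.5-fold, 8 of the 38 were lower, against 19.5% of all measured genes, and 3 were higher, against 21.7%. At 3-fold, CTPS1, CAD and PFAS were lower, which is 3 of 38 against 2.26%, and SAT1 was higher, against 2.28%. Setting the arrays level on the hybridization controls would put 11 of the 38, and 27.7% of all measured genes, at least 2-fold lower, and would leave SAT1 higher by 2-fold or more, with 2.15% of all measured genes.

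**Figure D1:**
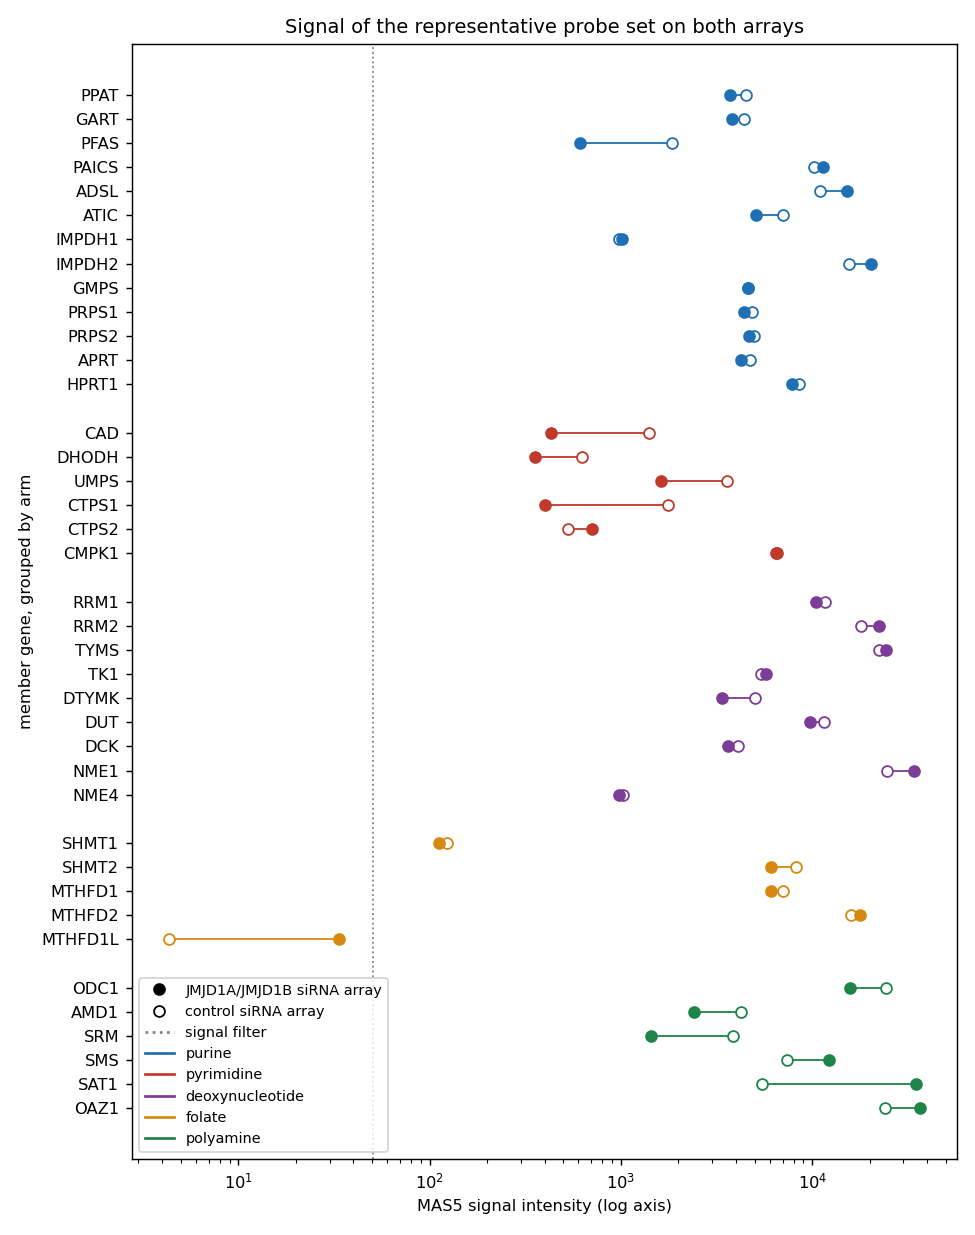
Signal of the brightest probe set of each of the 39 genes with a probe set, on a log axis, with the JMJD1A/B siRNA array as filled points and the control siRNA array as open points, coloured by arm; the dotted line is the signal filter at 50.4. The longest distances between the points above the filter belong to SAT1, whose filled point lies to the right, and to CTPS1, CAD, PFAS, SRM and UMPS, whose filled points lie to the left.

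The pyrimidine arm had the lowest median of the 5 arms, at -0.98 over 6 measured genes. CTPS1, CAD and UMPS were at least 2-fold lower, which is 3 of 6 against 8.53% of all measured genes. DHODH, CTPS2 and CMPK1 lay within 2-fold. CAD, which carries the opening activities of the pathway on a single protein, read 433 on the JMJD1A/B siRNA array and 1398 on the control array, a 3.23-fold difference with a log2 ratio of -1.69. Only 1.77% of all measured genes had a lower ratio. DHODH, the mitochondrial enzyme that oxidises dihydroorotate, read 354 on the JMJD1A/B siRNA array and 624 on the control array. Its log2 ratio was -0.82, short of 2-fold, and its 3 probe sets lay between -0.88 and -0.27. UMPS, which attaches the ribose and makes uridine monophosphate, read 1619 on the JMJD1A/B siRNA array and 3601 on the control array, a 2.22-fold difference. A second UMPS probe set read 1197 on the JMJD1A/B siRNA array and 2424 on the control array, a log2 ratio of -1.02. The first has the suffix _x_at and the second _s_at. The array maker gives these to probe sets that may match other sequences or several transcripts. The dimmest measured UMPS probe set has neither suffix and read 111 on the JMJD1A/B siRNA array and 128 on the control array. Its log2 ratio was -0.20, so that UMPS was under 2-fold by the mean of its probe sets, at -0.79.

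CTP synthase, the last step of the pathway, was split between its paralogs. CTPS1 read 400 on the JMJD1A/B siRNA array, which is 22.7% of the 1761 it read on the control array. Its log2 ratio of -2.14 was the lowest among the 38 genes, and 0.653% of all measured genes had a lower one, but it rests on 1 probe set. CTPS2 read 704 on the JMJD1A/B siRNA array and 531 on the control array, a log2 ratio of 0.41, while its other probe set stood at -0.23. Both CTPS2 values lay within the probe-set SD, and the log2 ratio of CTPS1 minus that of CTPS2 was -2.54. CMPK1, which phosphorylates cytidine and uridine monophosphates made by either route, was level, with 6531 on the JMJD1A/B siRNA array and 6472 on the control array.

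The sequences before the starts of CAD and UMPS are shown because these 2 genes of 1 route were lower together. They are the 250 bases before the annotated start, from RefSeq on GRCh38.p14, 5′ to 3′ on the gene's strand, with capitals marking matches to the motifs searched on both strands. The motifs were the E-box CACGTG, the CCAAT box, the cyclic AMP response element TGACGTCA and 4 spellings of the E2F site, TTTGGCGC, TTTCCCGC, TTTCGCGC and TTTGCCGC. None of these motifs holds another within it.
CAD, chr2:27217119-27217368, plus strand: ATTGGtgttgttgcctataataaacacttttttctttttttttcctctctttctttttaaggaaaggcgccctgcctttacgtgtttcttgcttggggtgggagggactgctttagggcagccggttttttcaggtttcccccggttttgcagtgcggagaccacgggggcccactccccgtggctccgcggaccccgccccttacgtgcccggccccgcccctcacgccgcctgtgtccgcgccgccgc
UMPS, chr3:124730202-124730451, plus strand: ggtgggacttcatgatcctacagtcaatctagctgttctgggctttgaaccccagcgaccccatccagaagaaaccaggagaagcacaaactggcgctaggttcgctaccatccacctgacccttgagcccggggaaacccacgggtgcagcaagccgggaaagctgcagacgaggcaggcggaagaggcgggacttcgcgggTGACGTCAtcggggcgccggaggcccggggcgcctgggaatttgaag
The CAD window held 1 CCAAT box, on the reverse strand at its far end, and the UMPS window held 1 cyclic AMP response element, starting 47 bases before the start. That element was in 1.65% of all 35116 promoter windows of this length and in 1 of the 54 windows of the listed genes (1.85%). Counted by gene, it was in 2.03% of all genes and in 1 of the 37 listed genes that the RefSeq table holds. The CCAAT box was in 32.01% of all windows and in 25 of the 54 windows of the listed genes (46.3%). These matches describe letters and no binding was measured.

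Among the purine genes 1 of 13 (7.69%) was at least 2-fold lower, against 8.53% of all measured genes. None was at least 2-fold higher, against 8.91%, and the median log2 ratio of the arm was -0.13. PFAS, which adds the nitrogen of glutamine in the middle of the ring synthesis, read 612 on the JMJD1A/B siRNA array and 1852 on the control array. That is a 3.03-fold difference, a log2 ratio of -1.60 from its single probe set. The enzymes before and after it were nearer to level. PPAT, the committed step, read 3725 on the JMJD1A/B siRNA array and 4509 on the control array, a log2 ratio of -0.28 with other probe sets at -0.78 and 0.15. GART, which catalyses several steps on a single protein, stood at -0.21, and its 6 measured probe sets were all below 0, down to -1.68. ATIC, the final bifunctional enzyme, stood at -0.47, and ADSL, which acts both in the ring synthesis and in making adenosine monophosphate, at 0.47.

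PAICS and GMPS were level by their brightest probe set and lower by others. PAICS, which acts after PFAS, read 11393 on the JMJD1A/B siRNA array and 10223 on the control array by its brightest probe set. Its second, nearly as bright, read 6948 on the JMJD1A/B siRNA array and 14564 on the control array, a log2 ratio of -1.07, so that the direction for PAICS was not settled. GMPS, which makes guanosine monophosphate, read 4600 on the JMJD1A/B siRNA array and 4620 on the control array. Its dimmer probe sets, with 214 and 112 on the JMJD1A/B siRNA array against 1262 and 400 on the control array, stood at -2.56 and -1.84, and their mean with the first was -1.47.

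Apart from the dimmer probe sets of GMPS, the branch, precursor and salvage genes of the purine arm stayed within the probe-set SD. IMPDH1 and IMPDH2, the paralogs of the rate-limiting step to guanine nucleotides, had log2 ratios of 0.05 and 0.39, with IMPDH2 the brighter at 20315 on the JMJD1A/B siRNA array and 15528 on the control array. PRPS1 and PRPS2, which make the phosphorylated ribose donor of both pathways, stood at -0.15 and -0.08. APRT and HPRT1, which salvage adenine and the other purine bases, stood at -0.14 and -0.13. These 6 genes would all be below 0 with the arrays level on the hybridization controls.

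**Figure D2:**
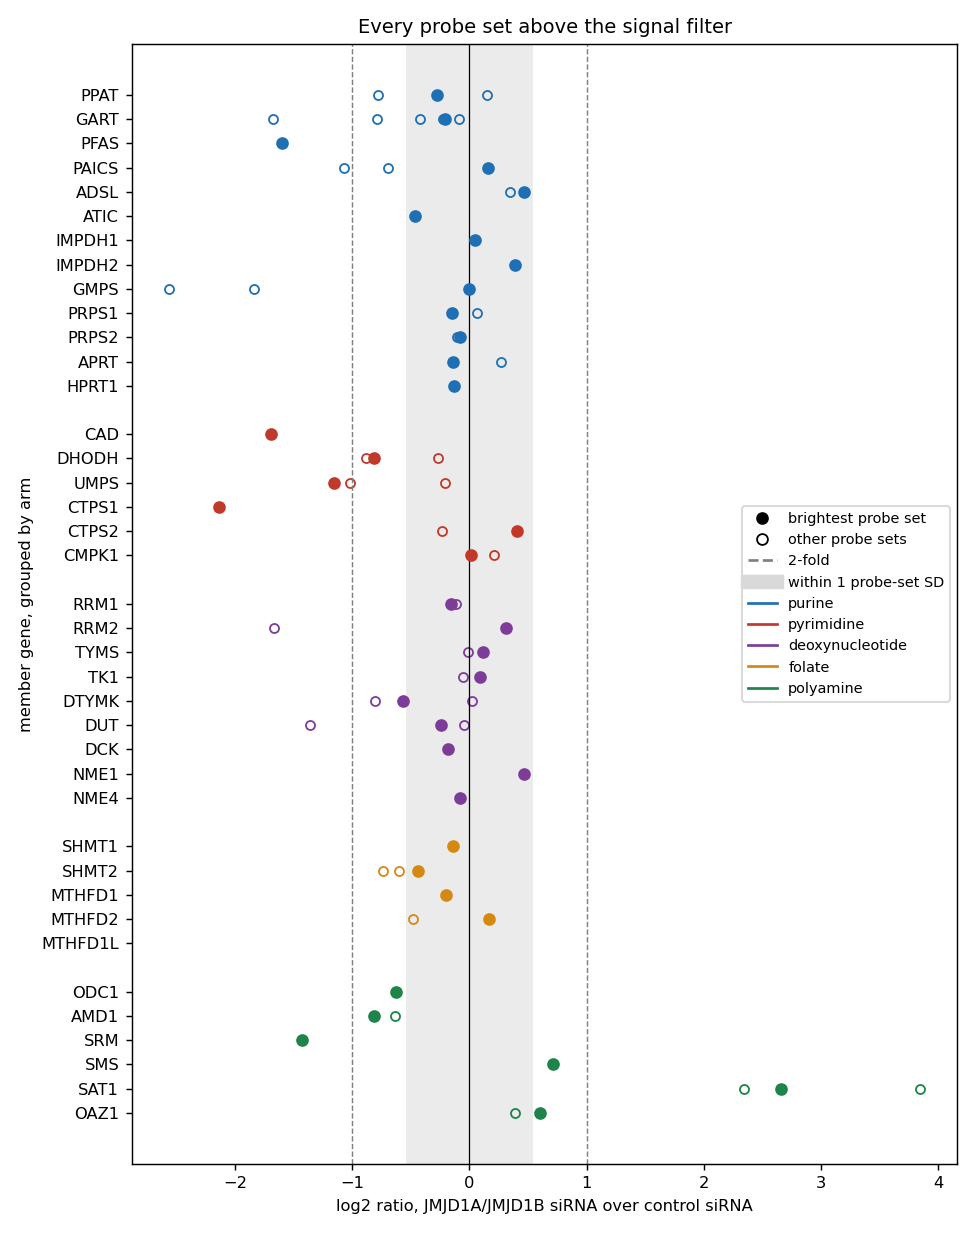
Log2 ratio of the JMJD1A/B siRNA array over the control siRNA array for every probe set above the signal filter, with the brightest of each gene filled and the others open, the grey band marking 1 probe-set SD (0.54) on each side of 0 and the dashed lines 2-fold. All 3 probe sets of SAT1 lie right of the 2-fold line, while those of GMPS, PAICS, RRM2 and DUT spread from within the band to beyond 2-fold lower.

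None of the 9 genes that supply deoxynucleotides and triphosphates differed 2-fold by its brightest probe set, and their median log2 ratio was -0.08. Most measured genes did not differ by that much either: 8.91% passed this threshold upward and 8.53% downward. Its absence from 9 genes therefore says little. RRM1, the large subunit of ribonucleotide reductase, read 10426 on the JMJD1A/B siRNA array and 11619 on the control array. TYMS, thymidylate synthase, read 24190 on the JMJD1A/B siRNA array and 22338 on the control array. TK1, the cytosolic thymidine kinase, read 5762 on the JMJD1A/B siRNA array and 5413 on the control array. All 3 were level within the probe-set SD. DTYMK, which phosphorylates thymidylate, had the lowest ratio of the arm, -0.56, with 3389 on the JMJD1A/B siRNA array and 5011 on the control array. NME1, a nucleoside diphosphate kinase, had the highest at 0.46, with 34071 on the JMJD1A/B siRNA array and 24702 on the control array, and its mitochondrial relative NME4 stood at -0.08. The ratio of NME1 was -0.04 after loess and -0.15 with the arrays level on the hybridization controls. DCK, the deoxycytidine kinase, stood at -0.18.

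RRM2 differed between its probe sets, and 1 of 3 DUT probe sets stood apart from the others. RRM2, the small subunit of the reductase, read 22259 on the JMJD1A/B siRNA array and 17935 on the control array by its brightest probe set, a log2 ratio of 0.31. Its other probe set read 5859 on the JMJD1A/B siRNA array and 18570 on the control array, a ratio of -1.66, although both were of similar brightness in control cells. DUT, which removes deoxyuridine triphosphate, stood at -0.24 by a probe set with the suffix _x_at, given by the array maker to probe sets that may also match other sequences. A second read 6661 on the JMJD1A/B siRNA array and 6876 on the control array, a ratio of -0.05. The third and dimmest read 420 on the JMJD1A/B siRNA array and 1078 on the control array, a ratio of -1.36. Genes of the replication fork and origin, expressed in the same phase of the cell cycle, were lower on the same array, with a median of -0.97 over 21 such genes. Of the 21, 9 (42.9%) were lower by 2-fold or more, against 8.53% of all measured genes. Their part in the values of this arm was not tested.

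The folate arm had the narrowest range of the 5 arms and also the fewest measured genes, 4. These lay between -0.44 and 0.16 on the log2 scale with a median of -0.17, all within the probe-set SD. Of all measured genes 23.7% lay beyond that SD above 0 and 21.2% below 0. SHMT2, the mitochondrial enzyme that takes one-carbon units from serine, read 6088 on the JMJD1A/B siRNA array and 8234 on the control array, and its dimmer probe sets stood at -0.60 and -0.73. SHMT2 lay beyond the SD after loess (-0.60) and with the arrays level on the hybridization controls (-1.05). MTHFD1, the cytosolic trifunctional enzyme, stood at -0.20. MTHFD2, its mitochondrial counterpart, read 17818 on the JMJD1A/B siRNA array and 15893 on the control array, with another probe set at -0.48. SHMT1, the cytosolic hydroxymethyltransferase, was dim here, with 113 on the JMJD1A/B siRNA array and 124 on the control array, and its 2 probe sets annotated with several symbols were not used.

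The polyamine arm was split: ODC1, AMD1 and SRM, the synthetic steps up to spermidine, lay below 0, while SAT1, the antizyme gene OAZ1 and the spermine synthase gene SMS lay above it. All 6 genes were measured, and by their brightest probe set all lay beyond the probe-set SD, while the median of the arm was -0.01. Of all measured genes 23.7% lay beyond that SD above 0 and 21.2% below 0. OAZ1 lay within that SD by the mean of its probe sets (0.50), and SMS after loess (0.48). With the arrays level on the hybridization controls SMS would stand at 0.10 and OAZ1 at -0.01, and SAT1 at 2.05. SAT1, which acetylates spermidine and spermine for breakdown or export, was 6.33-fold higher, with 34738 on the JMJD1A/B siRNA array and 5491 on the control array. Its other probe sets read 27690 and 23699 on the JMJD1A/B siRNA array against 5439 and 1649 on the control array, log2 ratios of 2.35 and 3.85. Of all measured genes, 0.207% had a higher ratio than SAT1. OAZ1, the antizyme that binds ornithine decarboxylase and targets it for degradation, read 36581 on the JMJD1A/B siRNA array and 24122 on the control array, a log2 ratio of 0.60 that is 0.09 after loess, and its other probe set stood at 0.39.

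Of the synthetic steps up to spermidine, SRM passed 2-fold on the deposited scale and ODC1 and AMD1 did not. ODC1 passed it after loess, at -1.04. With the arrays level on the hybridization controls ODC1 (-1.24) and AMD1 (-1.43) both passed it, as did 27.7% of all measured genes on the lower side. ODC1, which decarboxylates ornithine in the rate-limiting step, read 15722 on the JMJD1A/B siRNA array, which is 64.7% of the 24290 it read on the control array. AMD1, which supplies the decarboxylated S-adenosylmethionine, read 2416 on the JMJD1A/B siRNA array and 4251 on the control array, a log2 ratio of -0.82, with its second probe set at -0.63. SRM, the spermidine synthase, read 1434 on the JMJD1A/B siRNA array and 3857 on the control array, a 2.69-fold difference with a log2 ratio of -1.43. SMS, the spermine synthase that acts on the product of SRM, went the other way, with 12174 on the JMJD1A/B siRNA array and 7419 on the control array and a log2 ratio of 0.71. The log2 ratio of SRM minus that of SMS was -2.14. SAT1, SMS and OAZ1 were read only by probe sets with the suffix _s_at, which the array maker gives to probe sets matching several transcripts, so that leaving these out keeps ODC1, AMD1 and SRM alone.

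The windows before the starts of SRM and SAT1 are shown because these genes differed in opposite directions, in the same form and with the same motifs as above.
SRM, chr1:11060019-11060268, minus strand: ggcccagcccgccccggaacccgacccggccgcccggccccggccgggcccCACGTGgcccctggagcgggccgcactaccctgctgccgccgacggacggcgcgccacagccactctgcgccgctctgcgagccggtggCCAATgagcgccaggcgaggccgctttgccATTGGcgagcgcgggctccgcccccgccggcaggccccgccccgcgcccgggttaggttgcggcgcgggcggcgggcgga
SAT1, chrX:23782923-23783172, plus strand: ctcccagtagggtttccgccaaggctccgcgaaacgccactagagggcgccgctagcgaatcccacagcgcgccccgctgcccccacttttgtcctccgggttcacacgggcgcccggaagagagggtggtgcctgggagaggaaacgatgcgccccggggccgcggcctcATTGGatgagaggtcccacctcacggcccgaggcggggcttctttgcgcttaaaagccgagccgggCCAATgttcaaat
An E-box began 199 bases before the start of SRM and 29 bases before the second of 2 annotated starts of ODC1, while the window of SAT1 held none and had 2 CCAAT boxes, as did that of SRM. The window of the other ODC1 start held none of the motifs. An E-box was in 6.34% of all promoter windows and in 9 of the 54 windows of the listed genes (16.7%), which belong to 8 genes: ATIC, DCK, DHODH, MTHFD1, MTHFD1L, ODC1, PPAT and SRM. Of the 5 genes at least 2-fold lower, only SRM was among them. The E2F spellings were in 2.79% of all promoter windows and in 4 of the 54 windows of the listed genes (7.41%). These windows belong to DUT, GART, PRPS2 and TYMS, and none to the 5 lower genes. At so low a share, absence from 5 genes says little.

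The listed genes were brighter than most, and the ratio on these arrays varied with signal. Their median signal was 4898 on the JMJD1A/B siRNA array and 5212 on the control array, while over all measured genes it was 665 on the JMJD1A/B siRNA array and 691 on the control array. Among genes with a mean signal of at least 8000, the median log2 ratio was 0.24 for the 14 listed genes and 0.35 for all 768 genes. Between 500 and 2000, where CAD, PFAS and CTPS1 lie, it was -0.84 for 6 listed genes and -0.08 for all 3896 genes, of which 11.3% were at least 2-fold lower. After removal of this trend by loess, 8 of the 38 genes had a ratio above 0, in place of 14, and ODC1 joined those at least 2-fold lower, at -1.04.

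**Figure D3:**
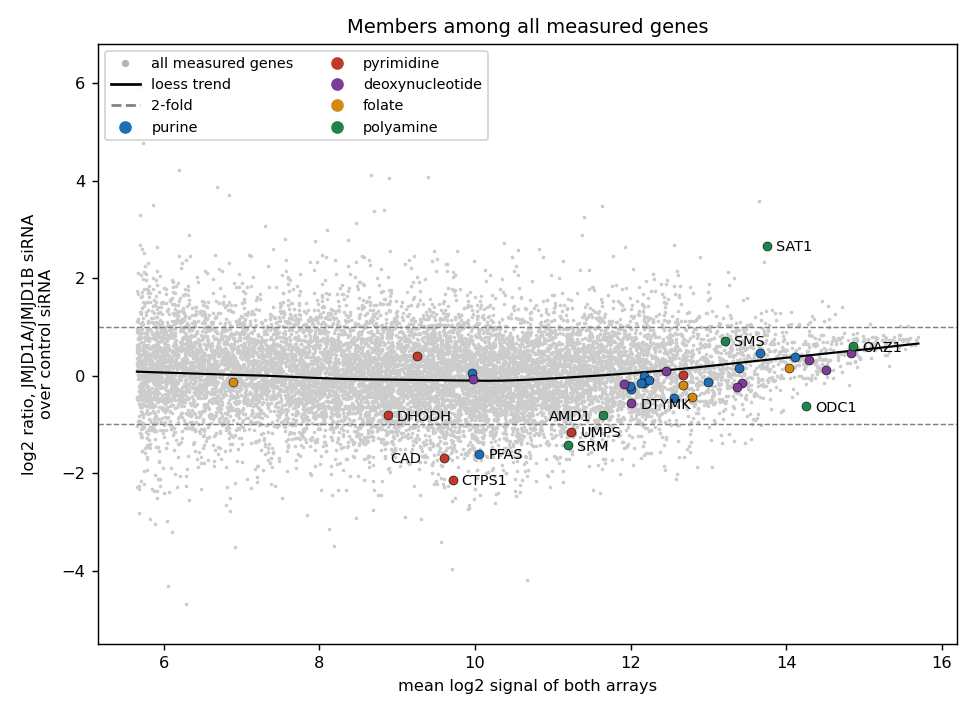
Log2 ratio of the JMJD1A/B siRNA array over the control siRNA array against mean log2 signal, with all 12561 measured genes in grey, the listed genes coloured by arm, those beyond the probe-set SD named, the loess trend as a black line and 2-fold as dashed lines. The trend climbs at high signal, where OAZ1 lies near it and ODC1 below it.

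Other genes of the same pathways were read from a second list of 80, of which 71 were measured. At least 2-fold higher were 8 of 71 (11.3%) and at least 2-fold lower 5 of 71 (7.04%), both near the 8.91% and 8.53% of all measured genes. In the purine list 3 of 13 were higher by 2-fold or more and none lower. These were GMPR, which returns guanosine monophosphate to inosine monophosphate, with 1153 on the JMJD1A/B siRNA array and 435 on the control array, and GUK1, the guanylate kinase, with 6808 on the JMJD1A/B siRNA array and 3139 on the control array. The third was ADA, adenosine deaminase, with 2389 on the JMJD1A/B siRNA array and 1112 on the control array. In the pyrimidine list 4 of 11 were at least 2-fold higher and 1 lower, while by the mean of probe sets 4 were higher and 3 lower. UPRT, named for the salvage of uracil, read 2648 on the JMJD1A/B siRNA array and 1066 on the control array. CDA, cytidine deaminase, read 416 on the JMJD1A/B siRNA array and 168 on the control array, and UPP1, uridine phosphorylase, read 1470 on the JMJD1A/B siRNA array and 730 on the control array. DPYD, which degrades uracil and thymine, read 107 on the JMJD1A/B siRNA array and 45.5 on the control array, and was at least 2.13-fold higher against the signal filter. UPB1, at the end of that breakdown, read 37.8 on the JMJD1A/B siRNA array and 93.1 on the control array, and was at least 1.85-fold lower against the filter.

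In the deoxynucleotide list 1 of 11 (9.09%) was at least 2-fold higher, against 8.91% of all measured genes. None was at least 2-fold lower, against 8.53%. The higher gene was GLRX, a glutaredoxin that can reduce ribonucleotide reductase. It read 20568 on the JMJD1A/B siRNA array and 5149 on the control array, and its other probe set had a log2 ratio of 2.60. In the folate list 3 of 18 (16.7%) were at least 2-fold lower, against 8.53% of all measured genes, and none was at least 2-fold higher. SLC19A1, the reduced folate carrier, read 374 on the JMJD1A/B siRNA array and 1183 on the control array, and its 4 measured probe sets lay between -2.54 and -1.66 on the log2 scale. MAT2A, which makes S-adenosylmethionine, read 2398 on the JMJD1A/B siRNA array and 6525 on the control array, with its other probe set at -0.73. MTR, methionine synthase, read 768 on the JMJD1A/B siRNA array and 1790 on the control array, with its other probe set at -0.34. In the polyamine list 1 of 18 (5.56%) was at least 2-fold lower, against 8.53% of all measured genes. None was at least 2-fold higher, against 8.91%. AZIN1, the inhibitor of antizyme, was the lower gene. It read 2499 on the JMJD1A/B siRNA array and 8065 on the control array, and its other bright probe set stood at -0.56.

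**Figure D4:**
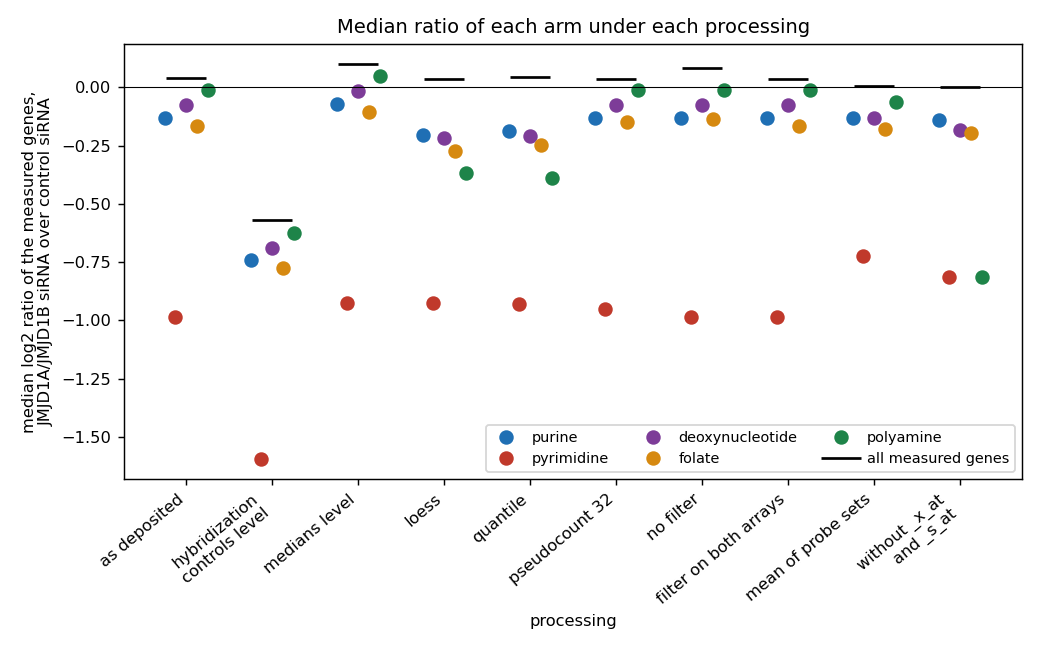
Median log2 ratio of the measured genes of each arm (points) and of all measured genes (black bars) on the deposited scale and under 9 other ways of processing. The pyrimidine arm is lowest in every column, although in the last, where the polyamine arm is reduced to ODC1, AMD1 and SRM, both stand at -0.82.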

How the data were processed

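Total RNA from 2 samples was measured on 1 single-channel array each, from 0.5 ug of RNA, per the labels' protocols. The authors deposited linear signal intensity for 54675 probe sets, processed with MAS5 according to the submitters' processing notes; its version and settings are not stated there. Names came from the platform annotation, in which 41091 probe sets carried 1 gene symbol, 1801 several and 11721 none. No pseudocount was added before log2, the deposited scale was kept, and each ratio is JMJD1A/JMJD1B siRNA minus control siRNA. A call is a fold of at least 2, with no test, since each condition had 1 array. A bound marked "at least" sets a signal under the filter to 50.4. The number of arrays limits precision. The 40 genes, the arms and the second list were chosen with earlier results of these data known. All 40 genes could be named, and from the second list those measured and at least 2-fold different. Alternatives were 4 scalings, a pseudocount of 32, 2 filters, 2 rules for probe sets and thresholds of 1.5-fold and 3-fold. Python 3.11.15, numpy 2.4.6, pandas 2.3.3 and statsmodels 0.14.6 (loess, span 0.3) were used, and the procedure was tested on simulated data. Promoter windows came from RefSeq.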

Additional observations from a re-analysis of the deposited data

Results flagged for a closer look

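Outside the gene comparison, the 18 hybridization controls carried a signal that the ratios do not use: their median log2 ratio, JMJD1A/JMJD1B siRNA over control siRNA, was 0.61, with a range of 0.40 to 0.71. They report few distinct transcripts and are not independent observations.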

How the results depend on the processing

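Under the 9 alternatives that kept the 2-fold threshold, CTPS1, CAD, PFAS and SRM remained at least 2-fold lower, and SAT1 remained at least 2-fold higher in the 8 that kept its probe sets. UMPS was under 2-fold by the mean of probe sets (-0.79), where GMPS was over it (-1.47), and without _x_at and _s_at probe sets (-0.20). With the arrays level on the hybridization controls, 11 genes were at least 2-fold lower and the medians were -0.75 for all listed genes, -0.74 purine, -1.60 pyrimidine, -0.69 deoxynucleotide, -0.78 folate and -0.62 polyamine, beside -0.57 for all measured genes. Of the changed genes of the whole array 7.19% were then higher, in place of 51.1%. Without a filter 2 of 39 genes were at least 2-fold higher, against 16.1% of all 19775 genes. The second was MTHFD1L, from a probe set under the filter on both arrays. Without _x_at and _s_at probe sets 0 of 28 genes were at least 2-fold higher, against 9.07% of all 9738 genes. In that setting 6 of 28 were at least 2-fold lower, against 10.6%, with RRM2 and DUT among them. The polyamine median was then -0.82. At 1.5-fold, 3 genes were higher and 8 lower, and at 3-fold 3 were lower. The sign turned in 36 of 332 single-gene values under alternatives, none of them of a gene called at 2-fold. No paired analysis was possible because each condition had 1 array, and no array could be left out. Detection calls were not used, so dim signals carry no call of presence.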
